A study of Mus musculus with 20 samples.

Results

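Of 20 distal colon (DC) libraries, 1 per mouse, the 5 with the lowest Dbp count relative to the total count were compared with the other 15, to list the genes whose levels went with Dbp across all diets. Dbp encodes the D-box binding protein, a clock-controlled transcription factor, and its gene (ENSMUSG00000059824) lies at chr7:45354512-45359627 in GRCm39. The 5 low-Dbp libraries came from mouse RS10_725 at 3.72 CPM (counts per megacount of the column total), mouse RS10_703 at 9.63 CPM, mouse RS10_727 at 10.3 CPM, mouse RS10_715 at 10.8 CPM and mouse RS10_721 at 16.1 CPM. The first library outside the group was that of mouse RS10_784 at 23.0 CPM, and the remaining 14 libraries ran from 36.4 to 115 CPM. Since Dbp chose the groups, its level is described here and was not tested between them.

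All mice were C57BL/6, were started at 3 weeks of age, and received the Total Western Diet (TWD), which mirrors a typical American nutrient intake, for 6 weeks. They then had the TWD with 0, 2, 5 or 10% resistant potato starch (RPS) by weight for a further 3 weeks, with 5 mice per diet, before RNA of whole DC tissue was sequenced. The low-Dbp group held 1 mouse each at 0% (RS10_703), 2% (RS10_715) and 5% RPS (RS10_721) and 2 mice at 10% RPS (RS10_725 and RS10_727). Diet was a covariate in every fit except those said to have no diet term. No label gives a time of day, and the mice were kept on a light and dark cycle, so the groups are defined by Dbp alone.

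The circadian clock is a feedback loop. BMAL1 pairs with CLOCK or NPAS2 and switches on genes through the E-box, among them the Period and Cryptochrome genes, Nr1d1 and Nr1d2 (which encode the REV-ERB receptors), Ciart and the PAR bZIP factors DBP, TEF and HLF. The Period and Cryptochrome proteins and CIART then hold the pair back, the REV-ERB receptors repress Bmal1 and Nfil3, and the PAR bZIP factors activate D-box genes that NFIL3 represses. Bmal1 therefore peaks roughly opposite to Dbp in most tissues, the colon included.

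The letters that these factors read can be seen in the 250 bases before the start of Per3, Ciart and Tef. Of the 8 genes with the smallest p for a slope on Dbp, given further on, 4 are clock genes. These 3 are the ones whose window holds such letters, while that of the other, Nr1d2, holds neither an E-box nor a D-box. The windows were read from GRCm39 at the start of the canonical transcript in GENCODE, 5′ to 3′ on the strand of the gene, and capitals mark the D-box (TTATGTAA or TTACGTAA) in Per3 and the E-box (CACGTG) in Ciart and Tef. Per3 (chr4:151129141-151129390, minus strand) encodes a Period protein, Ciart (chr3:95789557-95789806, minus strand) a repressor of the CLOCK-BMAL1 pair, and Tef (chr15:81695365-81695614, plus strand) a PAR bZIP factor.
Per3: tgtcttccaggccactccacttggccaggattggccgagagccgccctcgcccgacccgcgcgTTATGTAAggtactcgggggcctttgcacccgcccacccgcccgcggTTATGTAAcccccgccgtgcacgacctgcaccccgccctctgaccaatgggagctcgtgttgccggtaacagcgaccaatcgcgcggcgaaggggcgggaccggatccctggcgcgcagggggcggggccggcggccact
Ciart: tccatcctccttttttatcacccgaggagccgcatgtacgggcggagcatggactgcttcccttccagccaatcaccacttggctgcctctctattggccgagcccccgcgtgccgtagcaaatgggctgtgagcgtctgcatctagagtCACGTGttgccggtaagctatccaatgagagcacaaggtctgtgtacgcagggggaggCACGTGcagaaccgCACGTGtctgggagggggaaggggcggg
Tef: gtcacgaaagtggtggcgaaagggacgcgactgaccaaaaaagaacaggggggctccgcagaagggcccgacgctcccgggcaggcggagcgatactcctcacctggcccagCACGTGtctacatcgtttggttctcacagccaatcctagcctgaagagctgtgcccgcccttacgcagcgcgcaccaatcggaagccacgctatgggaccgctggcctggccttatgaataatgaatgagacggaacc
The Per3 window held a D-box starting at -187 and another at -140 bases from the start, the Ciart window E-boxes at -100, -42 and -28, and the Tef window an E-box at -138. Searched on both strands, an E-box stood in 7.02% and a D-box in 0.729% of the 18116 windows of this length for tested genes. No measurement of binding was part of these data, so the letters are a description of the windows.

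The total count was 26.3 ± 4.81 megacounts (M; SD, n = 5) in the low-Dbp and 29.0 ± 3.68 M (n = 15) in the other libraries, a difference of -2.65 M (exact two-sided permutation test over 15504 splits, p = 0.210). Levels from here on are CPM after scaling by trimmed mean of M-values (TMM). Epithelial markers (8 genes, Epcam and Krt8 among them) summed to 12047 to 17937 CPM in the low-Dbp and 10738 to 17122 CPM in the other libraries, and no marker of epithelium, goblet cells or smooth muscle was called between the groups. Nor was any of fibroblasts, endothelium, adipocytes or T cells. Of these last, 6 of 6, 4 of 4, 6 of 7 and 5 of 6 had positive log2 differences (medians 0.23, 0.19, 0.50 and 0.42). All 8 of smooth muscle were negative (median -0.23). The part of tissue make-up in the group differences was not tested. Some libraries held transcripts typical of other organs. The names liver-bearing and Pnlip-bearing used below refer to those transcripts, not to a tested origin. The library of RS10_703 held 99.2 CPM and that of RS10_727 36.3 CPM of Alb (serum albumin, from liver), against at most 4.6 CPM in the other 18, and that of RS10_721 held 1108 CPM and that of RS10_784 90.7 CPM of Pnlip (pancreatic lipase), against at most 2.66 CPM elsewhere. Pbsn (probasin, of the prostate) stood at 77.7 CPM in RS10_707 and 52.1 CPM in RS10_724, both outside the low-Dbp group, and at no more than 2.99 CPM in the other 18. The treatment label and the description disagree on diet for RS10_717, RS10_725 and RS10_748, and the description was used. In bulk RNA, fewer cells of a type and less RNA per cell cannot be told apart.

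Between the low-Dbp and the other libraries, 193 of 17892 tested genes were called higher (1.08%) and 256 lower (1.43%), at an adjusted p of at most 0.05 in edgeR's quasi-likelihood test and a fold of at least 1.5. The 5 libraries lay wholly above the 15 for 95 genes (0.531%) and wholly below for 99 (0.553%). These calls describe genes that went with the gene used to form the groups, so no p is given for any of them, and nothing is read from the shares. In all 449 genes were called (2.51%). Separate fits called 268 genes without RS10_703, of which 208 were among the 449, 294 without RS10_715 (242 among them) and 297 without RS10_725 (260 among them). Without both liver-bearing libraries (RS10_703 and RS10_727) 331 genes were called, of which 209 were among the 449, and without both Pnlip-bearing libraries (RS10_721 and RS10_784) 280, of which 215 were. Without all 4 of them, which leaves 2 low-Dbp mice, 80 were called, of which 49 were among the 449.

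**Figure D1:**
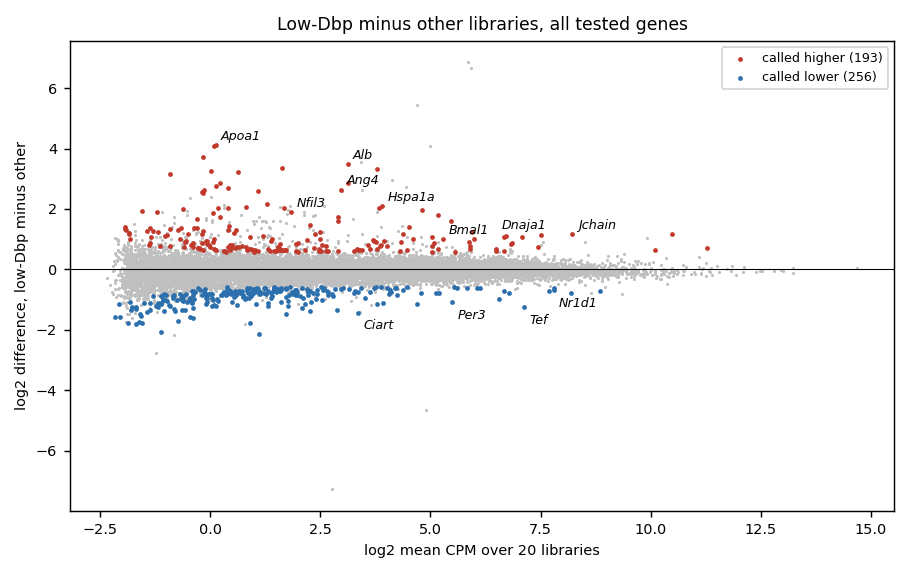
Log2 difference between the 5 low-Dbp and the 15 other libraries (y axis, edgeR fit with diet) against the log2 mean CPM over 20 libraries (x axis) for each of 17892 genes, with the 193 genes called higher in red and the 256 called lower in blue. Clock genes lie on both sides, and the liver genes Apoa1 and Alb are among the largest positive differences that were called.

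Of the 5 clock activators, 1 was called higher in the low-Dbp libraries and 0 lower, beside 1.08% and 1.43% of all tested genes. The 1 called was Bmal1. Bmal1, which encodes the partner that drives E-box genes, stood at 89.7 CPM in RS10_725, 53.4 CPM in RS10_703, 60.9 CPM in RS10_727, 52.7 CPM in RS10_715 and 67.2 CPM in RS10_721. In the other libraries it ran from 16.2 to 66.6 CPM with a median of 28.1 CPM, so the groups met at 1 library, that of RS10_784, which was next in order of Dbp. The log2 difference was 1.01 ± 0.21 (SE), it was 0.83 and no longer called without RS10_721, and it was 1.21 without the liver-bearing libraries. Npas2, which can take the place of Clock, had a median of 51.6 CPM against 33.8 CPM and a log2 difference of 0.52 ± 0.24, and was not called. Clock (log2 difference 0.19 ± 0.06) and Rora (0.11 ± 0.10), which encodes a receptor that activates Bmal1, were not called.

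The repressors parted into both directions, with 1 of 10 called higher and 5 lower, beside 1.08% and 1.43% of all tested genes. Cry1, a Cryptochrome that acts late in the cycle, was the one called higher. It stood at 28.9, 18.2, 22.5, 13.3 and 24.5 CPM in RS10_725, RS10_703, RS10_727, RS10_715 and RS10_721, against 7.38 to 15.9 CPM (median 12.1 CPM) in the other libraries, and 4 of the 5 lay above all 15. The log2 difference of Cry1 was 0.78 ± 0.14. Cry2, the paralog of Cry1, had a difference of the other sign (-0.44 ± 0.18) and was not called.

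Nr1d2, which encodes REV-ERB beta, stood at 53.3, 70.8, 75.5, 75.6 and 68.0 CPM in the same order of mice, below all 15 other libraries at 81.3 to 147 CPM (median 117 CPM). Its log2 difference was -0.72 ± 0.12, and within each of the 4 diets the low-Dbp mice lay below the rest. Nr1d1, which encodes REV-ERB alpha, had 123 to 194 CPM against 163 to 332 CPM, with medians of 137 and 244 CPM. Its log2 difference was -0.69 ± 0.15, and the ranges overlapped. Nr1d1 and Nr1d2 kept their calls in each of the 20 fits that left out 1 library.

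Per3 had 17.6 to 28.1 CPM (median 25.2 CPM) in the low-Dbp libraries and 27.5 to 89.3 CPM (median 47.2 CPM) in the others, a log2 difference of -1.09 ± 0.26. Its call was lost without RS10_715 (-1.10) and without RS10_721 (-0.97), although the size hardly moved. Ciart stood at 2.02, 3.73, 5.33, 4.87 and 4.85 CPM against 3.69 to 27.7 CPM (median 11.01 CPM), a log2 difference of -1.45 ± 0.37, and the call was lost without RS10_703 (-1.33), RS10_715 (-1.45), RS10_721 (-1.47) or RS10_725 (-1.34). Bhlhe41, which encodes a repressor that binds E-boxes, had at most 2.56 CPM in the 5 and at least 2.80 CPM in the 15 libraries (log2 difference -1.05 ± 0.23). Its paralog Bhlhe40 was not called (0.13 ± 0.11).

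Per1 and Per2, the Period genes that also answer quickly to hormones, were not called. Per1 had medians of 71.3 and 71.7 CPM and a log2 difference of -0.01 ± 0.14, and Per2 medians of 75.3 and 69.3 CPM and a difference of 0.23 ± 0.16. The highest Per2 level of all 20 libraries, 99.2 CPM, was in RS10_721.

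Of the PAR bZIP factors and clock outputs, Dbp aside, 6 were tested. Of these, 1 was called higher and 2 lower, beside 1.08% and 1.43% of all tested genes. Tef stood at 43.9, 72.0, 75.6, 63.9 and 73.2 CPM in RS10_725, RS10_703, RS10_727, RS10_715 and RS10_721, below the 83.6 to 244 CPM (median 162 CPM) of the others, with a log2 difference of -1.26 ± 0.21. Hlf had 4.98 to 11.5 CPM against 8.90 to 28.9 CPM, and a difference of -1.15 ± 0.27. The Hlf call was lost without RS10_703 (-1.14), RS10_715 (-0.97) or RS10_721 (-0.99).

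Nfil3, the repressor at D-boxes that opposes the PAR bZIP factors, moved the other way. It stood at 7.80, 5.98, 11.9, 8.82 and 6.33 CPM in the 5 low-Dbp libraries and at 0.84 to 4.37 CPM (median 1.88 CPM) in the other 15, so the groups were apart. The log2 difference was 1.90 ± 0.29, the largest among the clock genes tested, and it was 1.80 to 2.02 in the 20 fits that left out 1 library. The outputs Usp2 (-0.39 ± 0.23), Wee1 (-0.20 ± 0.11) and Nampt (0.01 ± 0.06) were not called, and of the 7 kinases and ligases that act on clock proteins, such as Csnk1d, none was called. Of the 22 activators, repressors, PAR bZIP factors and outputs listed, Dbp included but not tested, 10 were called between the groups. The share of all tested genes called was 2.51%. Per3, Ciart and Hlf lost the call without the mice whose diet labels disagree, Per3 and Ciart without the liver-bearing libraries, Per3 and Hlf without the Pnlip-bearing ones, and all but Tef and Nr1d2 without those 4 together. Without those 4 the log2 differences all kept their sign, and 9 of the 10 were larger in size than with all libraries. Nfil3 was at 2.07, Bmal1 at 1.21, Hlf at -1.54 and Ciart at -1.81, while Cry1 was at 0.73. The 4 include RS10_721 and RS10_784, which lie on either side of the cut in Dbp (16.1 and 23.0 CPM of the column total). Leaving them out sets the groups further apart in Dbp, at 10.8 against 36.4 CPM. The part of that wider gap in the larger sizes was not tested.

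**Figure D2:**
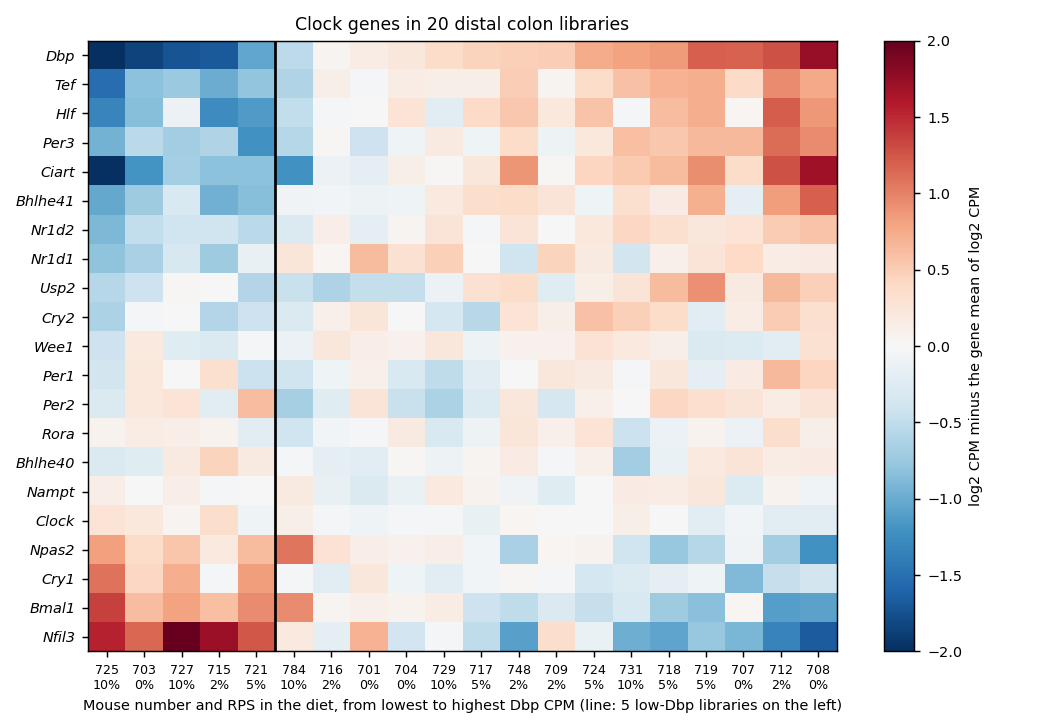
Log2 CPM of clock genes, each minus its own mean over 20 libraries (colour, blue below and red above the mean), with libraries in columns from lowest to highest Dbp and the RPS percentage under each mouse number. Left of the line, in the 5 low-Dbp libraries, Tef, Per3, Ciart and Bhlhe41 are blue and Bmal1 and Nfil3 are red, and the library of RS10_784 (first to the right of the line) is red for Bmal1 at 66.6 CPM and Npas2.

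Some genes of the heat shock response, which refold proteins, were also called. Of 13 heat shock and cold-inducible genes, 6 were called higher (Hspa1a, Hspa1b, Dnaja1, Dnajb1, Hspa8 and Hsph1) and 1 lower, against 1.08% and 1.43% of all tested genes, and the median log2 difference of the list was 0.48 against -0.01 over all tested genes. Hspa1a, an inducible HSP70 chaperone, stood at 43.7, 15.2, 25.4, 14.8 and 75.7 CPM in RS10_725, RS10_703, RS10_727, RS10_715 and RS10_721 and at 5.25 to 14.7 CPM in the other libraries (log2 difference 2.09 ± 0.31), so the groups were apart but nearly touched. Hspa1b, a near-identical copy, differed by 1.80 ± 0.34, and reads shared by the copies make the split between them uncertain. Dnajb1, an HSP40 co-chaperone, had 68.0 to 105 CPM against 41.0 to 63.0 CPM, with no overlap and a log2 difference of 0.78 ± 0.09.

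Dnaja1, another HSP40 co-chaperone, had 350.5, 235, 266, 213 and 492 CPM in the same order, and 93.3 to 209 CPM in the other libraries, a log2 difference of 1.147 ± 0.172. Hspa8, the constitutive HSC70, had medians of 3633 and 2009 CPM and a difference of 0.72 ± 0.21. Hsph1, of the HSP110 family, differed by 1.09 ± 0.30, a call lost without RS10_703 (1.23), RS10_715 (1.16), RS10_721 (0.76) or RS10_725 (1.07). The mitochondrial chaperonins Hspd1 (0.15 ± 0.12) and Hspe1 (0.07 ± 0.10) were not called. The one gene called lower was Cirbp, which encodes a cold-inducible RNA-binding protein, at 33.2 to 52.1 CPM against 43.9 to 85.2 CPM (log2 difference -0.60 ± 0.14). The highest values of Hspa1a, Dnaja1 and Hsph1 were those of RS10_721, the library with the most Pnlip, and without both Pnlip-bearing libraries 3 of the 13 genes were called in either direction and Hspa1a differed by 1.49. Of the 13, 4 were called without RS10_715 and 4 without RS10_721. The part of the pancreatic transcripts in these differences was not tested.

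The 10 genes with the largest positive difference, among those called, without overlap and at 1 CPM or more on average, included Nfil3, Hspa1a and Dnaja1. Adamts4, which encodes a protease that cleaves aggrecan, came first at 5.13, 4.11, 3.27, 12.6 and 4.82 CPM against 0.48 to 2.37 CPM (log2 difference 2.17 ± 0.31). Chordc1, a partner of HSP90, was higher by 0.91 ± 0.10, at 72.7 to 130.2 CPM against 37.7 to 62.8 CPM. Trib1, a pseudokinase that directs protein degradation, had 137 to 199 CPM against 53.4 to 135 CPM (1.07 ± 0.18). Tmc7, of the transmembrane channel-like family, varied little among the 5, from 19.9 to 22.4 CPM, against 8.76 to 16.4 CPM (0.91 ± 0.11). The others were Stc1, which encodes the hormone stanniocalcin (1.11 ± 0.16), Myc, the growth-promoting transcription factor (0.87 ± 0.16), and Errfi1, an inhibitor of the EGF receptor (0.83 ± 0.12). All 10 kept their calls in each fit that left out 1 library.

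Errfi1 was also 1 of 2 called genes, both higher, in a list of 13 glucocorticoid-responsive genes, beside 1.08% of all tested genes called higher. The other was Sgk1, a kinase that raises sodium uptake in the colon, at 240, 172, 146, 293 and 236 CPM against 59.1 to 203 CPM (log2 difference 1.08 ± 0.23). The median difference of that list was 0.15 against -0.01 over all tested genes, and 1 of the 13 was called without the Pnlip-bearing libraries. Its members Fkbp5, Tsc22d3 and Klf9, among others, were not called.

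Of the 10 genes with the largest negative difference by the same rule, Tef and Bhlhe41 belong to the clock. Defb45, of the beta-defensin family, had 2.12 to 4.26 CPM against 5.19 to 13.5 CPM (log2 difference -1.35 ± 0.19), and the lowest value was that of RS10_721. Syt8, a synaptotagmin, had 6.14 to 10.6 CPM against 11.5 to 24.4 CPM (-1.11 ± 0.16). The remaining 6 were 5930430L01Rik (-1.09 ± 0.24), 1700019C18Rik (-1.02 ± 0.19), BC037704 (-0.99 ± 0.17), 2900052L18Rik (-0.98 ± 0.15) and Gm20753 (-0.97 ± 0.18), which are annotated as long non-coding RNAs, and ENSMUSG00000097601, which has no symbol in the annotation (-0.86 ± 0.18). Of these 6, 2900052L18Rik had the most counts, at 2.40 to 3.65 CPM against 4.13 to 7.80 CPM, so most of them lay near 1 CPM.

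**Figure D3:**
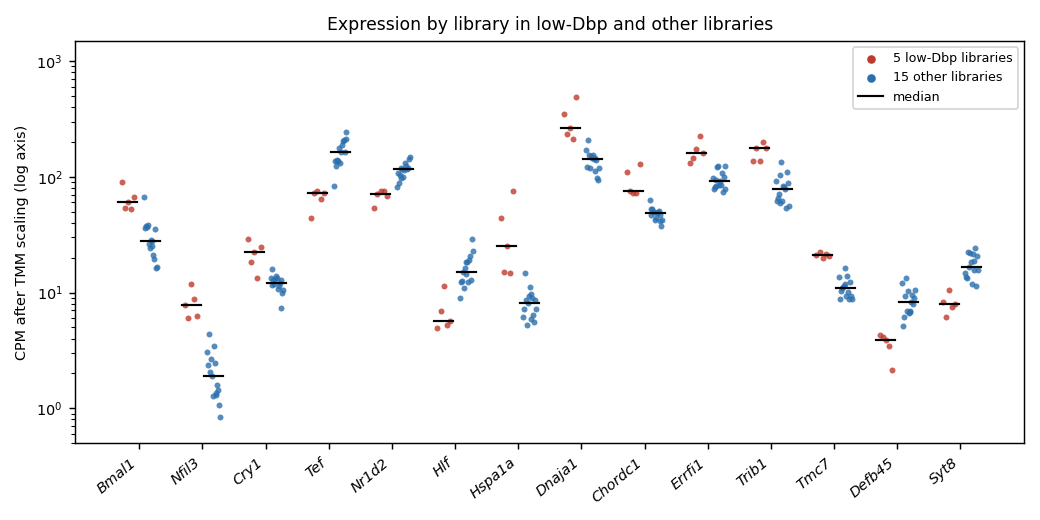
CPM after TMM scaling on a log axis for 14 genes, with 1 point per library (red, 5 low-Dbp libraries; blue, 15 other libraries) and the median as a black line. Nfil3, Tef, Nr1d2, Hspa1a, Dnaja1, Chordc1, Errfi1, Trib1, Tmc7, Defb45 and Syt8 show no overlap between the groups, while Bmal1, Cry1 and Hlf overlap.

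Of 16 genes of cholesterol synthesis and uptake, 1 was called lower, beside 1.43% of all tested genes. A negative difference was found for 15 of the 16 (median -0.41), and for 9144 of all 17892 tested genes (median -0.01). The one called was Insig1, which holds back the sterol sensor, with 42.2 to 72.5 CPM against 61.0 to 195 CPM and a log2 difference of -0.97 ± 0.24. That call was lost without RS10_703 (-0.97) or RS10_725 (-0.86), without the liver-bearing (-0.87) or the Pnlip-bearing libraries (-1.07), and without the mice whose diet labels disagree (-0.86). None of 23 cell cycle genes, 12 tested genes of fatty acid oxidation, 17 of ion and solute transport, 16 of xenobiotic metabolism, 7 of MHC class II or 13 interferon-stimulated genes was called. The 8 smooth muscle markers all had negative differences (median -0.23), none called, and their sum was 6070 to 11003 CPM in the low-Dbp and 7511 to 13362 CPM in the other libraries.

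Retnlb and Ang4, antimicrobial proteins of goblet and Paneth-like cells, were called higher, and both rested on 1 mouse. Ang4 stood at 98.7 CPM in RS10_721 and at 15.6, 0.19, 8.22 and 2.36 CPM in RS10_725, RS10_703, RS10_727 and RS10_715, against 0.15 to 13.4 CPM in the other libraries. Retnlb stood at 23.4 CPM in RS10_721 and at 2.05 CPM or less in the other 4, against at most 1.92 CPM. Without RS10_721 neither was called, and the log2 difference was then 1.71 in place of 3.23 for Retnlb, and 1.56 in place of 2.64 for Ang4. The Ang4 call was also lost without RS10_708, RS10_709, RS10_712, RS10_715, RS10_717, RS10_719, RS10_725, RS10_729 or RS10_784, each alone (2.45 to 2.86), and Ang4 shares sequence with other angiogenin genes.

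Of the plasma cell transcripts, Jchain, which joins secreted antibodies, was called higher. It had 304 to 720.6 CPM against 67.7 to 470 CPM (log2 difference 1.17 ± 0.31), and the call was lost without RS10_703 (0.64), RS10_715 (1.11) or RS10_725 (1.19). The summed B and plasma cell markers were 362 to 789 CPM against 76.3 to 534 CPM. Of the 6, 1 was called higher (2 were called without RS10_727 or RS10_729), beside 1.08% of all tested genes. Several immunoglobulin segments called higher were dominated by a single mouse. Examples, chosen after their values were seen, are Igkv12-44 at 147 CPM in RS10_703 and Iglv2 at 28.4 CPM in RS10_725. Reads of such segments can be shared among family members, which leaves their counts uncertain.

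Liver and pancreas transcripts are possible carry-over from other organs, and are set here beside the calls. How they entered the libraries was not tested. Of 21 listed liver markers, 13 had enough counts to be tested. Of these 13, 8 were called higher and none lower, beside 1.08% and 1.43% of all tested genes. The filter on low counts used all libraries, the liver-bearing ones included, and 11 of the 21 were tested outside the low-Dbp group alone. Direction and share were thus partly set by the filter, and nothing is read from them. Ahsg, which encodes fetuin-A, stood at 13.3 CPM in RS10_703 and 3.92 CPM in RS10_727 and at most 0.81 CPM in the other 18 libraries. Ahsg had too few counts to be tested without RS10_703 and RS10_727. Apoa1, the main protein of high-density lipoprotein, stood at 9.71 CPM in RS10_703, 3.75 CPM in RS10_727, 2.58 CPM in RS10_715, 2.43 CPM in RS10_725 and 0.36 CPM in RS10_721, against at most 0.68 CPM. Without RS10_703 and RS10_727, 1 of the liver markers was called (2 without RS10_703 alone). The log2 difference of Alb then went from 3.48 to 0.60, but that of Apoa1 only from 4.11 to 2.95. In RS10_725, with 2.43 CPM of Apoa1, Alb stood at 0.87 CPM, so Apoa1 did not follow Alb in every library.

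Pancreatic acinar genes showed the largest positive differences of all, yet none of the 11 tested was called. In other fits 5 were called without RS10_784 and 3 without RS10_727. There were 2 called without both Pnlip-bearing libraries, 1 without both liver-bearing ones and 0 without all 4. The list holds 25, and which were tested again rested on counts in all libraries, the Pnlip-bearing ones included. Pnlip differed by 6.66 ± 2.90 on the log2 scale, with 1108 CPM in RS10_721 and at most 2.66 CPM in the other low-Dbp libraries. Cpa1, a carboxypeptidase, stood at 605 CPM in RS10_721, 55.9 CPM in RS10_784 and at most 1.36 CPM in the other 18. Cela1 and Sycn, listed as acinar genes, were at 366 to 1272 CPM and 326 to 979 CPM across all 20 libraries, so their sum does not mark pancreas in this tissue. In all, 23 of the 193 genes called higher had 1 low-Dbp library at 5 or more times the median of the other 4. Of these, 12 were led by RS10_703 (Alb, Ahsg, Serpina3k and Hpx among them), 4 by RS10_721, 3 by RS10_715, and 2 each by RS10_725 and RS10_727. Egr1, an immediate early gene, was at 307 CPM in RS10_715 and 31.5 to 63.5 CPM in the other 4, and Nr4a1, another, at 163 CPM in RS10_727. These 2 were chosen after their values were seen.

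**Figure D4:**
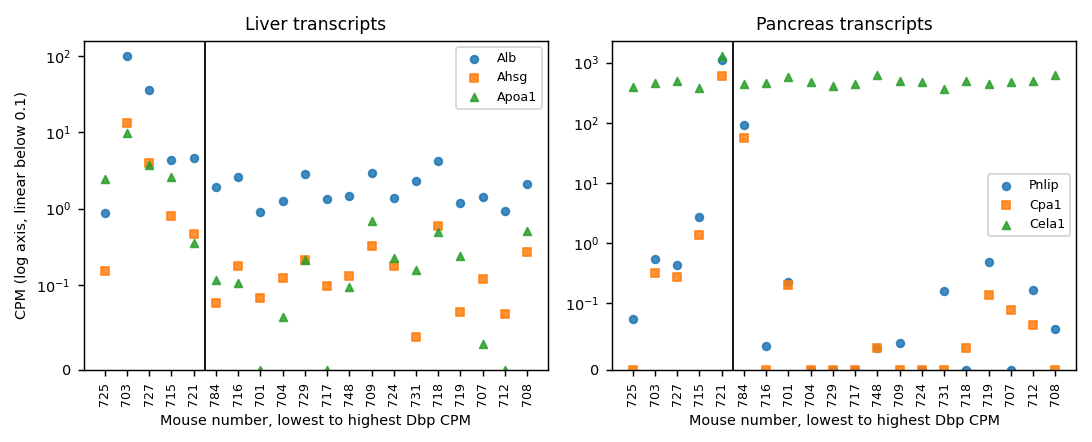
CPM after TMM scaling of 3 liver genes (left) and 3 pancreas genes (right) in each of 20 libraries, ordered from lowest to highest Dbp, with the 5 low-Dbp libraries left of the line; the axis is logarithmic above and linear below 0.1 CPM. Alb, Ahsg and Apoa1 peak in RS10_703 and RS10_727, Pnlip and Cpa1 in RS10_721 and RS10_784, and Cela1 is at 366 CPM or more in all.

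Whether genes followed Dbp outside the chosen group was asked in the 15 other libraries, as the slope of log2 expression on log2 Dbp with diet as a covariate. These libraries were the comparison group above, but the split itself does not enter this fit. Of 18180 tested genes, 137 had a positive slope (0.754%) and 224 a negative one (1.23%) at an adjusted p of at most 0.05 in edgeR's quasi-likelihood test, and 3004 (16.5%) had an unadjusted p under 0.05. The count of 361 (1.99%) fell to 127 without RS10_708, the library highest in Dbp, to 141 without RS10_704, 147 without RS10_701, 153 without RS10_712, 210 without RS10_717, 213 without RS10_716, 220 without RS10_731 and 235 without RS10_707.

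Per3 had the smallest p of all genes, with a slope of 0.86 ± 0.08 (SE) per doubling of Dbp (adjusted p = 5.01e-05). It rose from 27.5 CPM in RS10_784, the lowest in Dbp of the 15, to a highest level of 89.3 CPM. Ciart rose more steeply, by 1.06 ± 0.13 per doubling (adjusted p = 0.0025), Tef by 0.62 ± 0.08 (adjusted p = 0.00276) and Nr1d2 by 0.41 ± 0.06 (adjusted p = 0.0044). Usp2, a deubiquitinase under clock control, rose by 0.67 ± 0.10 (adjusted p = 0.00636), although it was not called between the groups. These 5 slopes passed the threshold in each of the 15 fits that left out 1 library.

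Bmal1 fell by 0.73 on the log2 scale per doubling of Dbp (SE 0.11, adjusted p = 0.00481), also in each of the 15 fits, and ran between 66.6 CPM in RS10_784 and 16.2 CPM. Npas2 had a slope of -0.80 ± 0.15 (adjusted p = 0.0215), which missed the threshold in 5 of the 15 fits, with adjusted p up to 0.099 (without RS10_708). Nfil3 had a slope of -0.997 ± 0.232 (adjusted p = 0.0368) and missed it in 7, with adjusted p up to 0.161 (without RS10_708). Hlf (0.50 ± 0.10, adjusted p = 0.0215) missed it in 3 fits, with adjusted p up to 0.119 (without RS10_708), and also with diet taken from the treatment label (adjusted p = 0.0573). Bhlhe41 (0.58 ± 0.14, adjusted p = 0.037) missed it in 7, with adjusted p up to 0.288 (without RS10_708).

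Set beside the comparison of groups, which shares these 15 libraries, Nr1d1 and Cry1 were called between the groups and did not pass the threshold for the slope, and how far these results differ was not tested. Nr1d1 differed by -0.69 ± 0.15 between the groups and had a slope of -0.12 ± 0.13 (adjusted p = 0.733) within the 15. Cry1 differed by 0.78 ± 0.14 and had a slope of -0.30 ± 0.10 (adjusted p = 0.152). Per1 (slope 0.33 ± 0.09, adjusted p = 0.0846) did not pass the threshold with all 15 libraries, and did without RS10_719 (adjusted p = 0.0316).

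**Figure D5:**
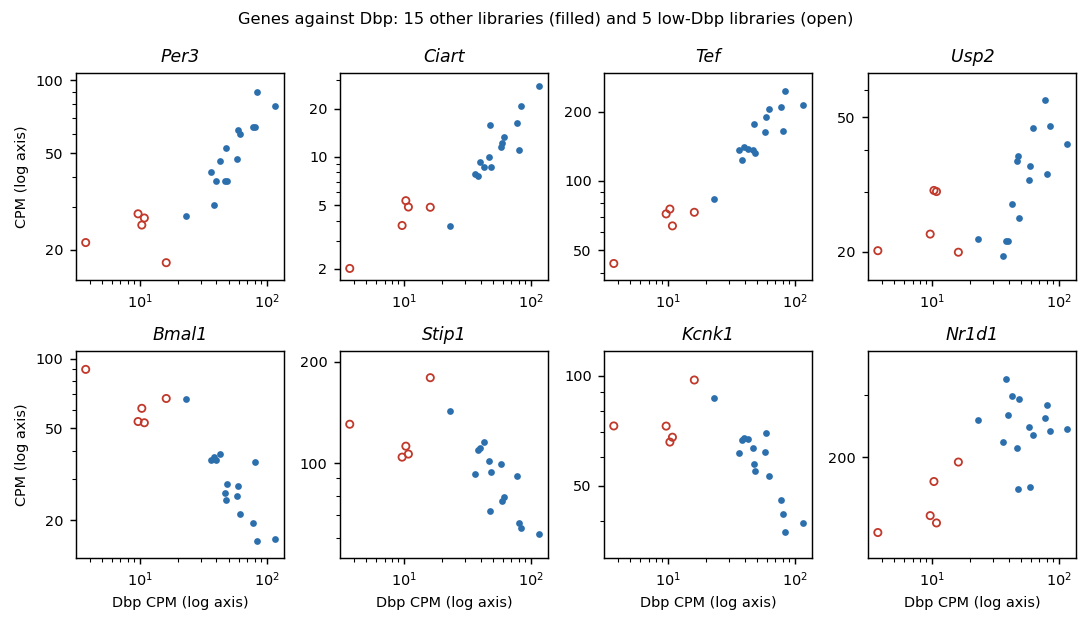
CPM after TMM scaling of 8 genes against Dbp CPM over the column total, both on log axes, with the 15 other libraries as filled blue points and the 5 low-Dbp libraries as open red circles. Across the blue points Per3, Ciart, Tef and Usp2 rise, Bmal1, Stip1 and Kcnk1 fall, and Nr1d1 (slope -0.12) shows no trend that passed the test.

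Of the 6 heat shock genes called higher at low Dbp, Hspa8, Dnaja1 and Hsph1 had a negative slope that passed the threshold in this fit, and so did Hsp90aa1, which was not called between the groups (log2 difference 0.48 ± 0.20). Hsp90aa1, the inducible HSP90, had a slope of -0.62 ± 0.10 (adjusted p = 0.00839), Hspa8 of -0.61 ± 0.13 (adjusted p = 0.0266), Dnaja1 of -0.45 ± 0.09 (adjusted p = 0.0232) and Hsph1 of -0.88 ± 0.17 (adjusted p = 0.0295). Of the 13 listed genes these 4 passed the threshold, against 1.23% of all genes, and 1 did so without RS10_701, RS10_712, RS10_731 or RS10_784 and 2 without RS10_704, RS10_707 or RS10_708. The Dnaja1 slope missed the threshold in 4 of 15 fits, with adjusted p up to 0.076 (without RS10_712), and without a diet term (adjusted p = 0.1), and that of Hsph1 in 8, up to 0.102 (without RS10_708). Hspa1a (slope -0.32 ± 0.15, adjusted p = 0.298) and Dnajb1 (-0.06 ± 0.08, adjusted p = 0.791) did not pass it.

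Besides the clock genes, the 8 smallest p included 4 others. Stip1, the co-chaperone that links HSP70 to HSP90, had a slope of -0.53 ± 0.07 (adjusted p = 0.00276), the potassium channel gene Kcnk1 of -0.49 ± 0.06 (adjusted p = 0.00195), Ston2, an adaptor of endocytosis, of -0.43 ± 0.06 (adjusted p = 0.00372), and Smim24, a small membrane protein, of 0.39 ± 0.05 (adjusted p = 0.00186). All 4 passed in each of the 15 fits. Between the groups their log2 differences were 0.41 ± 0.16, 0.34 ± 0.15, 0.38 ± 0.12 and -0.48 ± 0.12 in the same order, and none was called there. Several genes with the largest group differences had slopes near 0 within the 15, such as Trib1 (-0.08 ± 0.23, adjusted p = 0.914), Errfi1 (-0.03 ± 0.13, adjusted p = 0.943), Stc1 (0.03 ± 0.19, adjusted p = 0.962), Syt8 (0.03 ± 0.14, adjusted p = 0.943) and 2900052L18Rik (0.00 ± 0.14, adjusted p = 0.995).

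Among gene lists, 1 of 23 cell cycle genes had a negative slope that passed the threshold, beside 1.23% of all tested genes. This was Ccnd1, the G1 cyclin (-0.41 ± 0.08, adjusted p = 0.015). The median slope of that list was -0.45 against 0.00 over all tested genes, and the count was 0 without RS10_708 or RS10_712, 2 without RS10_719 and 6 without RS10_784. Between the groups the list went the other way. There 21 of the 23 were lower in the low-Dbp libraries (median log2 difference -0.17), none called, and how far the results differ was not tested. Of 12 genes of fatty acid oxidation 1 passed, with a positive slope, beside 0.754% of all tested genes. This was Ppara, the receptor that drives fatty acid oxidation, with a slope of 0.43 ± 0.10 (adjusted p = 0.0366). It missed the threshold with the treatment label, without the mice whose labels disagree and in 10 of the 15 fits that left out 1 library, all but those without RS10_718, RS10_719, RS10_724, RS10_729 or RS10_748. Of 16 xenobiotic genes 1 passed, with a negative slope, beside 1.23% of all tested genes. This was Cyp2c55, an epoxygenase of the colon, with a slope of -0.58 ± 0.09 (adjusted p = 0.00636). Cyp2c55 missed the threshold with the treatment label and with no diet term. Nothing is read from these counts of 1 per list. No liver, pancreas, epithelial or immune marker passed the threshold in this fit, with 11 liver and 8 acinar markers tested.

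Taking likeness to Dbp as Spearman's rho over the 20 libraries after the diet means of log2 CPM were subtracted, the closest genes were Gal3st1 (0.96), Nr1d2 (0.94), Plpp6 (0.93), 0610005C13Rik (0.93), Tef (0.93), Smim24 (0.93), ENSMUSG00000097601 (0.92) and Ndrg1 (0.92). Gal3st1, which encodes the enzyme that makes sulfatide, had 26.8 to 34.5 CPM in the low-Dbp and 38.0 to 54.2 CPM in the other libraries, without overlap, at a log2 difference of -0.52 ± 0.09 that is below the fold used for calls. The lncRNA gene 0610005C13Rik had 10.0 to 15.5 CPM against 15.3 to 52.6 CPM. At the other end stood Chordc1 (-0.93), Larp1 (-0.92), Ubfd1 (-0.92), Ywhag (-0.90), Sh3pxd2b (-0.90), Dnaja1 (-0.90), Cacybp (-0.90) and Hspa13 (-0.90), the last pair tied with Bmal1 and Nfil3 (-0.90 each). These 16 were picked for their rho, and the libraries share depth and diet structure, so the values are descriptions.

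Finally, the promoter windows were compared over the called genes. An E-box (CACGTG) stood in 26 of 250 windows of genes called lower (10.4%) and in 7 of 191 of those called higher (3.66%), beside 7.02% of all windows. For genes with a positive slope it was 17 of 136 (12.5%) and with a negative slope 20 of 224 (8.93%). A D-box stood in 3 of the 250 (1.2%) and in 2 of the 191 (1.05%), beside 0.729% of all. Of the 10 clock repressors 4 held an E-box and 2 a D-box. Of the 7 PAR bZIP factors and clock outputs, 2 held an E-box and 0 a D-box, and of the 5 activators 0 held either. No test was made of these shares.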

How the data were processed

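RNA of whole DC tissue from 20 mice was sequenced as stranded, single-end mRNA libraries. The authors trimmed the reads, mapped them to GRCm39 in CLC Genomics Workbench and deposited raw read counts per gene, not normalised, with no mice pooled. Which gene annotation was used, and how multi-mapping reads were counted, is not given in the sources used here, so counts of near-identical genes are uncertain. All 20 columns were matched to mice, and 0 were unmatched. Of 26619 gene identifiers, 26338 were found in GENCODE release 39 (vM39, GRCm39).

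The 5 libraries with the lowest Dbp count over the column total formed the low-Dbp group. Counts were analysed in R 4.3.3 with edgeR 4.0.16 (filterByExpr with a minimum count of 10, TMM, robust glmQLFit, glmQLFTest, Benjamini-Hochberg adjustment over all tested genes), with diet as a covariate and Dbp left out. Calls between groups needed an adjusted p no higher than 0.05 and a fold of 1.5 or more. The slope on log2 Dbp was fitted in the 15 other libraries with the same limit on the adjusted p and none on size. Differences are log2 with SE. No pair of mice of one diet agreed within sampling noise (chi-square per degree of freedom 9.10 to 62.9). The fits were tested on simulated data. DESeq2 1.42.0, RLE scaling, no diet term, other filters, labels and group sizes, and omission of each library were tried as alternatives.

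Named genes were all clock genes listed, the 10 largest differences in each direction among called genes without overlap and with a mean of at least 1 CPM, up to 4 called genes of each other list, the 8 smallest slope p and the 8 genes most and least like Dbp. Other list members are named from their list, after their values were seen. The groups, lists and rules were chosen with earlier results of these data known. A few listed genes are counted in their lists but not reported here by name. Mice are taken as the replicates, since each library is labelled with its own mouse.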

Additional observations from a re-analysis of the deposited data

Results flagged for a closer look

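Within the low-Dbp group, 52 values (22 clock genes, 13 heat shock and cold-inducible genes, 16 summed marker lists and the total count) were searched for a mouse standing far from the other 4, by the gap to its nearest neighbour over the range of the 5. The cut used picks out about 1 in 20 groups of independent, normally distributed values, and 4 of 52 were picked out. The values here are CPM and sums from the same 5 libraries. Whether they meet those conditions was not tested, so the rate is only a rough guide. The 22 clock genes include Dbp, which chose the group, so that rate does not hold for its value. Dbp was not among the 4. The summed pancreas acinar markers were 8248 CPM in RS10_721 against at most 1439 CPM in the other 4, with a gap of 0.907 of the range. Rora, at 13.3 CPM, was lowest in RS10_721 with the next mouse at 16.3 CPM. The summed squamous epithelium markers were highest in RS10_721, at 11.03 CPM against 8.71 CPM for the next. The summed pancreas islet markers were lowest in RS10_727, at 21.9 CPM, with the next at 38.98 CPM. Of the 4 values 3 belong to RS10_721.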

How the results depend on the processing

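With all 20 libraries 449 genes were called between the low-Dbp and the other libraries. The count was 287 without the mice whose diet labels disagree, 1799 without a fold threshold, 256 with the 4 and 236 with the 6 lowest libraries as the group, 280 without the Pnlip-bearing and 80 without the liver- and Pnlip-bearing libraries, and 2209 genes had a slope on Dbp over all 20. It was 268 to 601 when 1 library was left out, and stayed within 1.5 times of 449 with DESeq2, RLE scaling, no filter on low counts, the treatment label, no diet term, the liver-bearing libraries left out or the planned pair of highest summed acinar markers left out (RS10_721 and RS10_748). The slope count within the 15 libraries was 361, 898 with DESeq2, 214 with the treatment label and 127 to 419 when 1 library was left out. The difference in total count was -3.88 to -0.677 M over the same omissions. Of the 40 named genes called between groups, 10 lost the call without the mice whose labels disagree, 7 without the liver-bearing, 10 without the Pnlip-bearing and 31 without both kinds of library, 19 with the 4 and 6 with the 6 lowest libraries as the group. Ahsg, 1 of the 40, had too few counts to be tested without the liver-bearing libraries or without both kinds. It is not counted in the 7 or the 31. No called direction of a named gene reversed in any alternative. The alternatives that leave out Pnlip-bearing or liver-bearing libraries were chosen after seeing the data. No paired analysis was possible because mouse numbers are unique to an animal. No separate fit was made within a diet, where 2 low-Dbp mice stood against 3 others at 10% RPS and 1 against 4 at each other level.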

Other observations

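Of 25 chaperone and stress genes of the endoplasmic reticulum (ER), where secreted proteins are folded, 10 had a negative slope on Dbp that passed the threshold within the 15 other libraries and none a positive one, beside 1.23% and 0.754% of all 18180 genes. The list was put together after the slopes had been seen, so it is a description with no test of the list, and none of the 25 was called between the low-Dbp and the other libraries. Hspa5, the main chaperone of the ER lumen, had a slope of -0.81 ± 0.14 per doubling of Dbp (edgeR, adjusted p = 0.0125). Hyou1, its co-factor, had -0.73 ± 0.11 (adjusted p = 0.00839), the secreted factor Manf -0.64 ± 0.11 (adjusted p = 0.0102) and Creld2 -0.57 ± 0.09 (adjusted p = 0.00839). Xbp1, the transcription factor of the ER stress response, had -0.26 ± 0.08 (adjusted p = 0.108). The count was 6 to 14 when 1 library was left out, 6 without RS10_704, RS10_708 or RS10_731 and 14 without RS10_719.

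The ER stress element (CCAAT and CCACG with 9 bases between, both strands) stood in 9 of the 25 windows before the start of these genes (36%), and in 17 of all 18116 windows (0.0938%). The window of Creld2 (chr15:88703563-88703812, plus strand, GRCm39) is shown with the element in capitals, where it reads on the opposite strand and starts at -90.
Creld2: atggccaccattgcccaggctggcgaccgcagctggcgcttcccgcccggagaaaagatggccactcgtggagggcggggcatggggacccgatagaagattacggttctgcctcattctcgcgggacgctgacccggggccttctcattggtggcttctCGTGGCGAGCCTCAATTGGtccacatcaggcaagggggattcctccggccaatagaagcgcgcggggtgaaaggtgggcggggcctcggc
The letters are a description of the windows, and no test of them was made.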
